A study of Mus musculus with 8 samples.

Results

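Splenic B cells activated for 2 days with an antibody to CD40 were compared with YFP control B cells, which were also taken 2 days after the start of culture. The comparison used the 2 CD40-activated and the 2 YFP control arrays, which are 4 of the 8 arrays of the series, and they were chosen by their group labels. It was read over 20581 autosomal genes out of 21515 measured, because the groups also differ in sex. The YFP control cells were B cells from spleens of female (C57BL6XBALBc) F1 mice carrying YFPflSTOP/+, a reporter that stays silent until Cre recombinase removes a stop cassette. They were isolated by depletion of CD43-positive cells, treated with TAT-Cre, a recombinase that enters cells, and sorted for YFP 2 days later. Their arrays are labelled as re-analysed from an earlier deposit. The CD40-activated cells came from spleens of male C57BL6 mice of the strain B6/J, were isolated by the same depletion and were cultured with anti-CD40 for 2 days, with no TAT-Cre, reporter or sort stated. No culture of B6/J cells without anti-CD40 is among the samples. Antibody, strain, sex, TAT-Cre, sort and set of arrays therefore go together in this comparison and cannot be told apart. The other groups are given beside it for orientation. Naive B cells came from the same kind of male B6/J mice with RNA taken directly after isolation, so they share breed and sex with the CD40-activated group but were not cultured. LMP1 cells came from female F1 mice carrying LMP1flSTOP/YFPflSTOP, were treated with TAT-Cre and sorted like the YFP control, and express the Epstein-Barr virus protein LMP1. Each group has 2 arrays labelled as biological replicates. Ages, and whether animals were pooled, are not given in the sources used here.

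CD40 is a receptor of the TNF receptor family on B cells, and its ligand is displayed by activated helper T cells. It has no enzymatic activity of its own and recruits TRAF adaptors, which start the canonical NF-kB pathway through degradation of IkB proteins and the noncanonical pathway through processing of the p100 protein encoded by Nfkb2. B cells stimulated through CD40 are known to leave quiescence, to divide and to present antigen more effectively to T cells.

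Values are RMA levels on a log2 scale, on which 1 unit is a 2-fold step, and a difference is the mean of the CD40-activated arrays minus the mean of the YFP control arrays, with its standard error. A gene is said to have risen or fallen where limma's adjusted p was under 0.05. With 2 arrays a group the precision is limited. The YFP control arrays stood apart from each other. Over 1 log2 unit separated them at 913 autosomal genes, 649 of them lower in YFP control 2. This compares with 32 genes between the CD40-activated arrays, 354 between the naive arrays and 14 between the LMP1 arrays. Which of the YFP control arrays is the unusual one cannot be told from 2 arrays. Results are therefore also given without YFP control 2, and in part without YFP control 1. A fit without 1 array leaves 1 array in that group, whose spread then does not enter. The adjusted p and call counts of such a fit rest on the spread of the other groups. The B cell label was borne out by high levels of Cd79a, the signalling chain of the B cell receptor, at 12.65 and 12.62 in the YFP control arrays and 12.53 and 12.33 in the CD40-activated arrays. Ms4a1, which encodes CD20, read 11.70 and 11.87 in the YFP control arrays. These are bulk samples, in which fewer cells of a type and less RNA per cell cannot be told apart.

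Of the 20581 autosomal genes, 2842 differed (13.8%), with 1618 higher (7.86%) and 1224 lower (5.95%) in the CD40-activated cells. The difference was at least 1 log2 unit for 1409 genes (6.85%). The median over all genes was -0.04. Counts in the lists below are to be set beside these shares over all genes. The split between higher and lower calls depended on scaling: 56.9% of the called genes were higher as deposited, and 41.7% after each set of arrays was quantile normalized on its own. The count was 2617 genes without YFP control 2, 984 without CD40-activated 1, 804 without CD40-activated 2 and 5250 without YFP control 1, so the number of calls moved with single arrays. Most of the 2842 genes missed the threshold when either CD40-activated array was left out. A gene whose 2 groups do not overlap cannot change sign when 1 array is left out, so the sign was no check. The levels of both groups did not overlap for 11039 genes (53.6%), so a lack of overlap alone says little with 2 arrays against 2.

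The naive and LMP1 arrays place each difference beside the split by breed, sex, TAT-Cre, sort and array set. For 2346 genes (11.4%) all 4 C57BL6 arrays, naive and CD40-activated, lay on one side of all 4 F1 arrays, with 1129 genes above (5.49%) and 1217 below (5.91%). Both naive arrays lay below both CD40-activated arrays for 5879 genes (28.6%) and above both for 6450 genes (31.3%). Among the 1618 genes that rose, 313 (19.3%) had all 4 C57BL6 arrays above the F1 arrays, and 1341 (82.9%) had the naive arrays below the CD40-activated arrays. Among the 1224 genes that fell, 415 (33.9%) had all 4 C57BL6 arrays below the F1 arrays, and 655 (53.5%) had the naive arrays above the CD40-activated arrays. The CD40-activated arrays enter both the calls and these positions. Shares of called genes above those of all genes, here and in the lists below, therefore follow in part from the choice. Naive and LMP1 levels, where given below, are values with no test. Besides small RNAs, the named genes that rose with all 4 C57BL6 arrays above the F1 arrays were Cr2, Ctss, Dnase1l3, H2-Ab1, H2ac20, Herpud1, Icosl, Ifngr1, Il7r, Il9r, Itgb2, Lair1, Ltb, Pik3r4, Pmvk, Relb and Sesn3. Those that fell with all 4 below were Alcam, Arnt, Ccl3, Ccr7, Cd79b, Cd86, Derl3, Gbp10, Gbp4, Gbp5, Gbp7, H2-Ea, Ifi204, Igtp, Il12a, Il2ra, Irgm1, Irgm2, Myd88, Nr4a2, Nr4a3, Pla2g10os, Psmb10, Rel, Scimp, Slc2a1, Stat4, Tab2, Terc, Tigit, Tlr6, Tnfrsf13c and Zbp1. For these, breed, sex, TAT-Cre, sort and array set go with the direction.

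H2-Ea showed the difference that separates the breeds most plainly. It encodes the alpha chain of the class II molecule I-E, which C57BL/6 mice are known not to express and BALB/c mice do. H2-Ea read 12.65 and 12.67 in the YFP control arrays, 5.01 and 5.20 in the CD40-activated arrays, 5.29 and 5.13 in the naive arrays and 10.42 and 10.55 in the LMP1 arrays. Both F1 groups were high and both B6/J groups low, and the difference of -7.55 ± 0.16 was the lowest of all autosomal genes (adjusted p = 2.16e-08). Nnt, which B6/J mice carry in a mutated form, gave no such contrast on these probe sets, at 8.19 and 8.10 in the YFP control arrays and 8.02 and 8.27 in the CD40-activated arrays.

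Small nucleolar RNAs filled most of the highest differences, and they too lay with the split between B6/J and F1 groups. These RNAs guide chemical modification of ribosomal RNA. Of 66 snoRNA genes, 37 rose and 4 fell, with the same counts without YFP control 2 and 34 and 6 after quantile normalization within each set. Snord110 read 7.62 and 5.87 in the YFP control arrays, 12.15 and 12.04 in the CD40-activated arrays, 12.79 and 12.69 in the naive arrays and 7.74 and 7.73 in the LMP1 arrays. Both B6/J groups were high and both F1 groups low, a difference of 5.35 ± 0.43. In all, 34 of the 37 snoRNA genes that rose (91.9%) had all 4 C57BL6 arrays above all 4 F1 arrays, and for 0 of them did the naive arrays lie below the CD40-activated arrays. Antibody treatment, breed, sex, TAT-Cre, sort and array set cannot be told apart for these genes. The highest difference of all autosomal genes was that of Snord58b (6.75). Other small RNAs among the highest differences were Snord1b (5.87), n-R5s136 (4.04), a gene of 5S ribosomal RNA, Snord70 (4.89), Snord72 (4.74), Snord55 (3.96), Snord73a (3.47), Snord111 (3.32) and Rny1 (3.58). Snord53 was among the lowest, at -3.15. Protein-coding genes behaved differently in this respect: of 1499 that rose, 238 (15.9%) had the C57BL6 arrays all above, and 1298 (86.6%) had the naive arrays below the CD40-activated arrays.

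**Figure D1:**
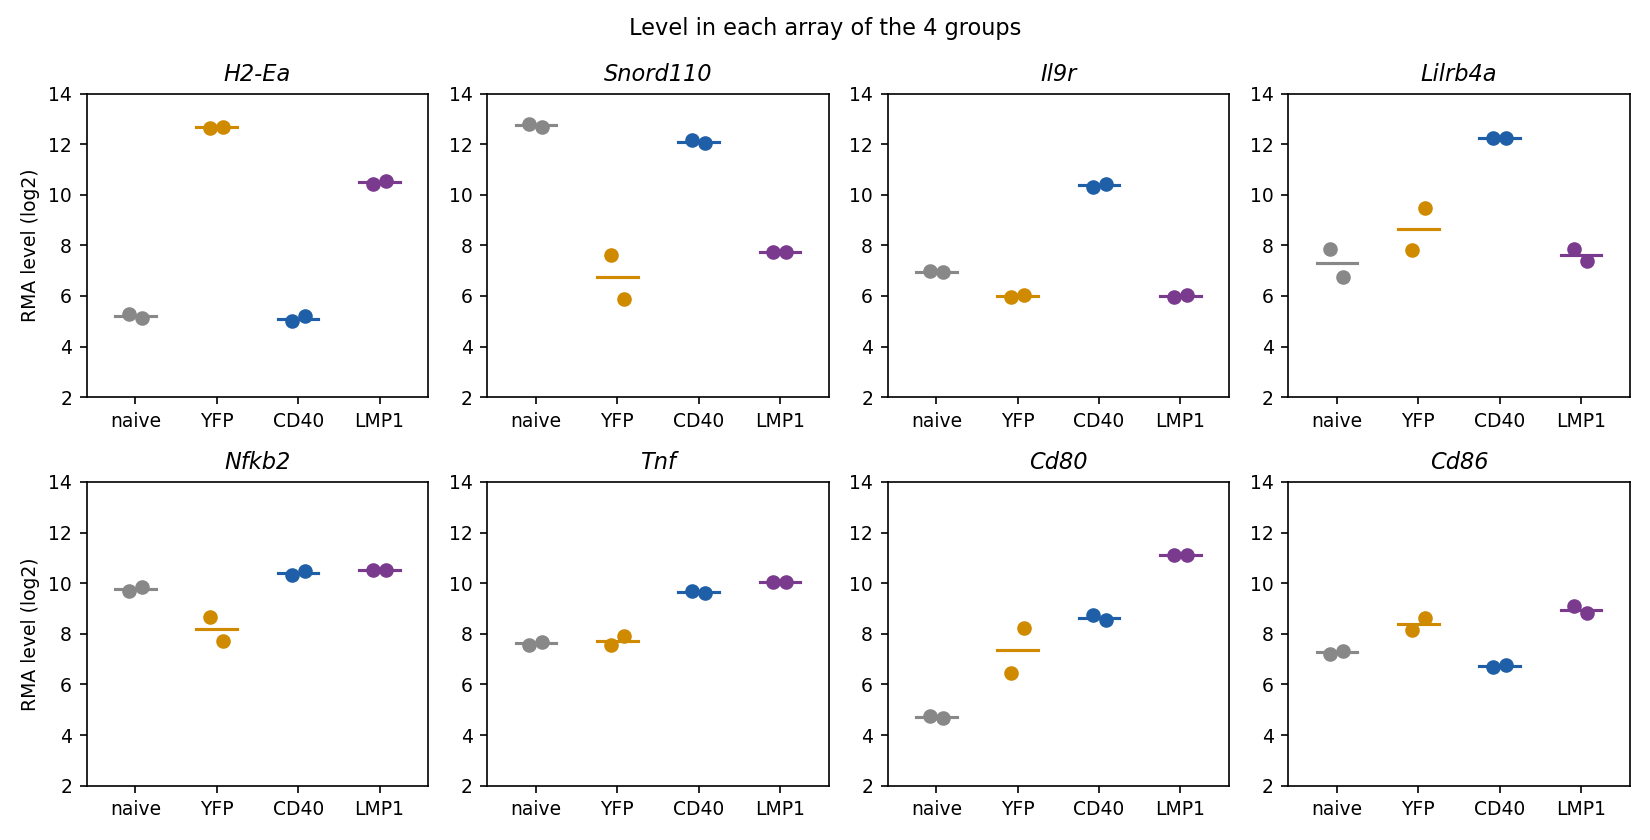
RMA level (log2) in each of the 8 arrays for 8 genes. Points are arrays and horizontal lines are group means, with the 4 groups on the x axis. H2-Ea and Snord110 separate the B6/J groups (naive, CD40) from the F1 groups (YFP, LMP1), while Il9r and Lilrb4a are high in the CD40-activated arrays alone, at 10.31 and 10.42 and at 12.23 and 12.26.

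Among protein-coding genes Il9r had the highest difference, followed by the histone gene H2ac20 (3.98) and Lilrb4a. Il9r, which encodes the receptor chain for interleukin 9, read 5.94 and 6.02 in the YFP control arrays and 10.31 and 10.42 in the CD40-activated arrays, a rise of 4.38 ± 0.16 (adjusted p = 8.89e-07). The naive arrays read 6.99 and 6.93 and the LMP1 arrays 5.94 and 6.04, so no other array came near the CD40-activated arrays. Lilrb4a, an inhibitory receptor with immunoglobulin domains, read 7.81 and 9.46 in the YFP control arrays and 12.23 and 12.26 in the CD40-activated arrays, a rise of 3.61 ± 0.48 (adjusted p = 0.00136). The YFP control arrays were far apart, and the difference was 4.43 without YFP control 2 and 2.785 without YFP control 1. The naive arrays, at 7.84 and 6.75, and the LMP1 arrays, at 7.85 and 7.39, were near YFP control 1.

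Adm, which encodes the peptide adrenomedullin, read 4.76 and 4.29 in the YFP control arrays, 8.06 and 7.99 in the CD40-activated arrays and 5.51 and 5.45 in the naive arrays, a rise of 3.50 ± 0.22. Dnase1l3, a secreted DNase, read 5.17 and 5.26 in the YFP control arrays and 8.72 and 8.34 in the CD40-activated arrays, a rise of 3.31 ± 0.25, with naive levels of 6.40 and 5.90 in between. For both genes the CD40-activated arrays were above the control and naive arrays. 3 genes picked after their values were seen were also high: Mreg rose by 3.17, Abcb1b, a drug efflux pump of the multidrug resistance family, by 2.81, and Ccr1, a chemokine receptor, by 2.46.

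Of 14 measured receptors, adaptors and kinases of the CD40 pathway, 1 rose and 2 fell, which is 21.4% called against 13.8% over all genes, and the median difference was 0.36. Traf1, a TRAF adaptor whose gene is a known NF-kB target, read 8.10 and 7.93 in the YFP control arrays, 9.59 and 9.57 in the CD40-activated arrays, 8.06 and 7.74 in the naive arrays and 10.11 and 10.07 in the LMP1 arrays. The CD40-activated arrays lay above the control and naive arrays without overlap, a rise of 1.56 ± 0.17 (adjusted p = 0.000507). Cd40 itself read 9.69 and 8.98 in the YFP control arrays and 10.02 and 9.95 in the CD40-activated arrays, a difference of 0.65 that missed the threshold (adjusted p = 0.11). Traf5 fell by 1.02, and Tab2, a bridge to the kinase TAK1, fell by 0.74. Tab2 was also low in the naive arrays, at 8.80 and 8.70, so all 4 C57BL6 arrays were below the F1 arrays. Birc2, Traf2, Tank, Tradd, Traf3ip2, Map3k7, Birc3, Traf6, Ikbkb and Traf4 lay between -0.28 and 0.68 and missed the threshold. The counts were 2 higher and 2 lower without YFP control 2, with Tank then called at 1.07. Without either CD40-activated array they were 1 and 0, and without YFP control 1 they were 8 and 2.

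Of 17 measured members of the list of NF-kB subunits, IkB proteins and feedback regulators, 6 rose and 1 fell, with a median of 0.26. The subunits Nfkb2 and Relb and the regulators Nfkbia, Nfkbie, Tnfaip3 and Zc3h12c rose, and Rel fell. Nfkb2, the noncanonical subunit, read 8.65 and 7.70 in the YFP control arrays, 10.32 and 10.47 in the CD40-activated arrays, 9.71 and 9.85 in the naive arrays and 10.51 and 10.53 in the LMP1 arrays, a rise of 2.22 ± 0.27 (adjusted p = 0.000787). The YFP control arrays were the lowest of all, and without YFP control 2 the difference was 1.75. Nfkbia, which encodes the inhibitor IkB alpha, read 9.52 and 9.55 in the YFP control arrays, 10.74 and 10.81 in the CD40-activated arrays and 10.54 and 10.62 in the naive arrays, a rise of 1.24 ± 0.15. The naive arrays thus stood close below the CD40-activated arrays and well above the YFP control. Tnfaip3, the deubiquitinating enzyme A20, read 7.63 and 7.90 in the YFP control arrays, 9.14 and 9.09 in the CD40-activated arrays and 8.37 and 8.31 in the naive arrays, a rise of 1.35 ± 0.17. Nfkbie, another IkB protein, rose by 1.96, from 9.57 and 8.24 to 10.88 and 10.84.

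Zc3h12c, a relative of the RNase regnase-1, had the highest difference of the list. It read 6.53 and 7.36 in the YFP control arrays, 9.61 and 9.76 in the CD40-activated arrays, 5.75 and 5.81 in the naive arrays and 6.37 and 6.27 in the LMP1 arrays, a rise of 2.74 ± 0.24 (adjusted p = 0.000169). It was high in the CD40-activated arrays alone. Relb, the partner of the processed Nfkb2 product, rose by 1.06 (adjusted p = 0.0339), but without YFP control 2 the difference was 0.55 (adjusted p = 0.0663), and the naive arrays overlapped the CD40-activated arrays. Rel, which encodes c-Rel, fell by 0.78, from 11.82 and 12.06 to 11.21 and 11.11. Rela, the p65 subunit, differed by 0.14, and Tnip1, Nfkbiz, Tnip2, Nfkbid, Cyld, Zc3h12a, Nfkbib and Otulin lay between -0.35 and 0.52, all short of the threshold. Bcl3 read 9.54 and 8.36 in the YFP control arrays and 8.22 and 8.01 in the CD40-activated arrays. The difference of -0.83 missed the threshold (adjusted p = 0.123). It was -1.43 without YFP control 2 and -0.245 without YFP control 1. Counts for the list were 5 higher and 2 lower without YFP control 2, 4 and 0 without either CD40-activated array, and 8 and 1 without YFP control 1.

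Of 18 other known NF-kB targets, 7 rose and 0 fell, with a median of 0.59, and 5 of the 7 had the naive arrays below the CD40-activated arrays. Lta, the cytokine lymphotoxin alpha, read 6.33 and 6.79 in the YFP control arrays, 8.54 and 8.37 in the CD40-activated arrays and 7.66 and 7.81 in the naive arrays, a rise of 1.90 ± 0.19. Fas, the death receptor, read 6.04 and 6.81 against 8.47 and 8.09, a rise of 1.85, and its naive arrays, at 6.71 and 6.84, were level with the control. Ltb, the membrane partner of lymphotoxin alpha, rose by 2.20, but its naive arrays read 10.74 and 10.98, above the CD40-activated arrays at 10.45 and 10.39, while the F1 arrays were low, at 9.01 and 7.43 in the YFP control and 7.21 and 7.25 in LMP1. Plek rose by 1.31, Marcksl1 by 1.27, Irf4, a transcription factor of activated B cells, by 0.70 and Slamf7 by 0.61. Ccl22, a chemokine that attracts T cells, read 9.67 and 10.88 in the YFP control arrays and 10.34 and 9.77 in the CD40-activated arrays, a difference of -0.22 (adjusted p = 0.743). Both cultured groups were far above the naive arrays, at 4.91 and 5.29, and below the LMP1 arrays, at 13.17 and 13.15. The list had 4 higher without YFP control 2, where Marcksl1 (adjusted p = 0.183), Irf4 (adjusted p = 0.132) and Slamf7 (adjusted p = 0.0554) were lost, and 3 higher without either CD40-activated array.

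Promoters of 3 genes that rose in these lists are shown because they hold an NF-kB letter pattern near the start site. The sequences are from RefSeq, build GRCm38.p6, cover the 250 bases before the start and are written 5′ to 3′ on the gene's strand, with matches to GGANTTTCC on either strand in capitals.
Nfkbia, chr12:55492648-55492897, minus strand: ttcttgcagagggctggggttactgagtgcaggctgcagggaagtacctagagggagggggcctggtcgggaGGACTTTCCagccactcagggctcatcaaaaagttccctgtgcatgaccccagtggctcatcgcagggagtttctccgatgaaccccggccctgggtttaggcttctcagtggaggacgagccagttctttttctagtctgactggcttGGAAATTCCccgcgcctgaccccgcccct
Tnfaip3, chr10:19015411-19015660, minus strand: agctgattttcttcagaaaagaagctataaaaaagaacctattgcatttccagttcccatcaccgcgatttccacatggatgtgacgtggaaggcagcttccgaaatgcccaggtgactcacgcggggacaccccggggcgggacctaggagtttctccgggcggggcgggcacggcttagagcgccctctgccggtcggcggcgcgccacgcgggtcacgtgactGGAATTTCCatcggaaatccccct
Ltb, chr17:35194257-35194506, plus strand: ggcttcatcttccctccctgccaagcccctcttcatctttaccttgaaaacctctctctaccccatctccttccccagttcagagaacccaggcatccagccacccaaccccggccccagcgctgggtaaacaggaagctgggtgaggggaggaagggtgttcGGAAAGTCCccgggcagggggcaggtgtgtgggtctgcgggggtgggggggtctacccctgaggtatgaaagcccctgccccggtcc
In Nfkbia the matches begin at -178 and -29 relative to the start, in Tnfaip3 at -24 and in Ltb at -87. Over windows of 300 bases, 250 before and 50 after the start, 1.57% of the 15948 autosomal genes with a window held the pattern, and 2.08% of the genes that rose did. In the list of subunits and feedback regulators 4 of 15 genes with a window held it, among them 3 of the 5 that rose, and of the other targets 2 of 17 did. A match describes the letters only.

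Genes of microRNAs moved both ways, 22 higher and 18 lower of 384, a share of 10.4% called, which is below that of all genes. For 11 of the 22 all 4 C57BL6 arrays lay above all 4 F1 arrays. Breed, sex, TAT-Cre, sort and array set go with the direction of those 11. For 9 of the 22 the naive arrays lay below the CD40-activated arrays, as they did for 28.6% of all genes. These 9, of which Mir1197 is also among the 11, are described here, a choice made after their values were seen. MicroRNAs pair with messenger RNAs through a seed at bases 2 to 8 and lower their stability or translation. The arrays read the region of the gene's transcript and not the mature microRNA. The mature sequences of 7 of them, from RefSeq build GRCm38.p6 with the seed in capitals, show 2 shared seeds.
mmu-miR-146a-5p: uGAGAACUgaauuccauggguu
mmu-let-7f-5p: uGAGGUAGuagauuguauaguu
mmu-let-7d-5p: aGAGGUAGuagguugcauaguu
mmu-miR-15b-5p: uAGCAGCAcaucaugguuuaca
mmu-miR-16-5p: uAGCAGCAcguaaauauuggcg
mmu-miR-29a-3p: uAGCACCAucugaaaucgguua
mmu-miR-301a-3p: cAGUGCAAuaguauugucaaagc
The let-7 pair shares one seed and the miR-15b and miR-16 pair another. Mir146, whose product miR-146a is a known NF-kB-induced brake on the pathway and represses Traf6, read 3.27 and 3.34 in the YFP control arrays, 6.10 and 5.77 in the CD40-activated arrays, 3.0 and 2.87 in the naive arrays and 3.84 and 3.41 in the LMP1 arrays. The CD40-activated arrays stood alone, a rise of 2.63 ± 0.20 (adjusted p = 6.6e-05). Mirlet7f-1 read 2.12 and 2.26 in the YFP control arrays and 4.15 and 4.34 in the CD40-activated arrays. Its control levels were near the lowest values of the YFP control arrays, 1.68 and 1.63. Those of Mir1197 were low too, at 2.45 and 2.38. Of the 9, all but Mir16-2 and Mir5103 had control levels below the medians of the YFP control arrays, 5.56 and 5.68. Mir15b read 3.72 and 2.87 against 4.97 and 5.20, and its neighbour Mir16-2 read 5.64 and 6.39 against 6.71 and 7.11. Mir29a read 4.18 and 2.96 against 5.34 and 6.0. In each of these the lower CD40-activated array was above the higher control array. They were chosen among called genes, and the levels of both groups did not overlap for 53.6% of all genes. Differences of the remaining genes were 1.92 for Mir5103, 0.87 for Mir301, 0.74 for Mirlet7d, which missed the threshold without YFP control 2 (adjusted p = 0.0519), and 0.70 for Mir1197, which missed it too (adjusted p = 0.0886). Without YFP control 2, 19 microRNA genes were higher and 14 lower.

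**Figure D2:**
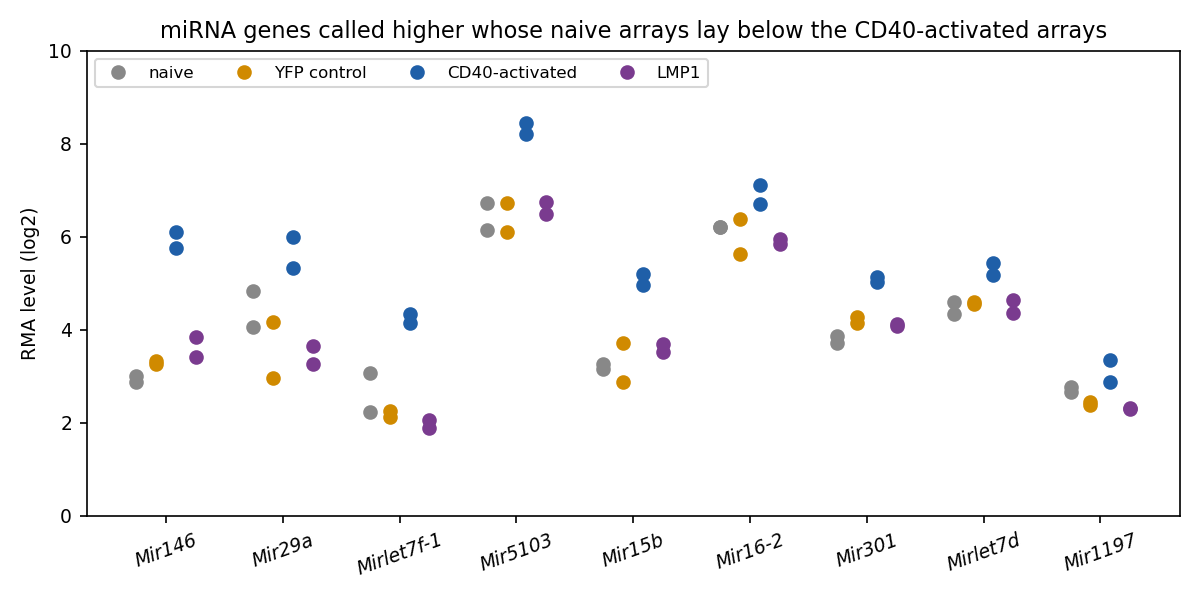
RMA level (log2) of 9 microRNA genes that rose and whose naive arrays lay below the CD40-activated arrays. Each point is 1 array, coloured by group, and the y axis starts at 0. Mir146 reads 6.10 and 5.77 in the CD40-activated arrays and 3.84 or less in all other arrays.

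Costimulatory ligands, through which B cells signal to T cells, did not move as one. Of 14 measured, 3 rose and 2 fell. Cd86, a ligand of CD28 on T cells, read 8.17 and 8.63 in the YFP control arrays, 6.70 and 6.76 in the CD40-activated arrays, 7.21 and 7.32 in the naive arrays and 9.09 and 8.83 in the LMP1 arrays. It was lowest in the CD40-activated arrays, and fell by 1.67 ± 0.20 (adjusted p = 0.000693). Cd80, which also binds CD28, read 6.46 and 8.23 in the YFP control arrays, 8.75 and 8.54 in the CD40-activated arrays and 4.75 and 4.67 in the naive arrays. The difference of 1.30 missed the threshold (adjusted p = 0.0772). It was 2.19 without YFP control 2 and 0.415 without YFP control 1. Icosl, the ligand of ICOS on T cells, rose by 1.16, with naive arrays at 10.40 and 10.39 level with the CD40-activated arrays at 10.43 and 10.40. Tnfsf4, the OX40 ligand, rose by 0.94, from 5.01 and 4.96 to 5.88 and 5.96 with naive levels of 4.19 and 4.26, and Ly9, a SLAM receptor, by 0.92. Cd24a fell by 1.47. Cd48, Tnfsf8, Tnfsf13b, Tnfsf14, Tnfsf9, Cd70, Slamf1 and Tnfsf18 lay between -0.49 and 0.33, below the threshold. Cd70, the ligand of CD27, read 4.24 and 4.07 in the CD40-activated arrays and 8.17 and 8.33 in the LMP1 arrays, so the high level was seen with LMP1 and not with anti-CD40. Counts were 4 higher and 2 lower without YFP control 2, 2 and 2 without CD40-activated 1, 0 and 2 without CD40-activated 2, and 3 and 4 without YFP control 1.

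Of 16 coinhibitory ligands and receptors, 4 rose and 2 fell. Beside Lilrb4a, described above, Pvr, a ligand of TIGIT and DNAM-1, rose by 1.00, Lair1, a collagen receptor, by 0.97, and Havcr1, the TIM-1 receptor, by 0.94. Havcr1 read 6.49 and 7.08 in the YFP control arrays, 7.72 in both CD40-activated arrays, 4.95 and 4.92 in the naive arrays and 4.70 and 5.07 in the LMP1 arrays, so both cultured non-LMP1 groups were above the rest. Tigit fell by 1.11 and Pirb, a receptor for class I molecules, by 1.15. Cd274, which encodes PD-L1, differed by 0.76 (adjusted p = 0.0542) and Vsir by -0.69 (adjusted p = 0.0538). Havcr2, Pdcd1lg2, Pdcd1, Lgals9, Ctla4, Btla, Tnfrsf14 and Lag3 lay between -0.41 and 0.05. The counts were 3 and 2 without YFP control 2, with Pvr lost (adjusted p = 0.119). They were 2 and 1 without CD40-activated 1, 1 and 1 without CD40-activated 2, and 5 and 2 without YFP control 1.

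Of 14 genes of class II antigen presentation measured besides H2-Ea, 5 rose and 1 fell, with a median of 0.26. Ctss, the cathepsin that trims the invariant chain, read 10.35 and 9.60 in the YFP control arrays, 11.66 and 11.73 in the CD40-activated arrays and 11.04 and 11.10 in the naive arrays, a rise of 1.72 ± 0.23 (adjusted p = 0.00146). Ctsb rose by 1.26, H2-Ab1, the beta chain of I-A, by 0.81, Ciita, the master regulator of class II genes, by 0.72 and H2-Oa by 0.56. H2-Ob, the partner of H2-Oa in the inhibitor of peptide loading, fell by 0.84. Ctss was the 1 gene still called higher without YFP control 2, where H2-Ab1 (adjusted p = 0.062), Ciita (adjusted p = 0.118), H2-Oa (adjusted p = 0.102) and Ctsb (adjusted p = 0.0586) missed the threshold. The list had 1 higher without either CD40-activated array and 7 higher without YFP control 1. H2-Aa, Ifi30, Ctsh, H2-Eb1, H2-DMb1, Lgmn, H2-DMb2 and H2-DMa lay between -0.38 and 0.40. H2-Eb1, the beta chain that pairs with the product of H2-Ea, differed by 0.15, at 11.65 and 11.32 against 11.64 and 11.63. Ciita was far lower in the LMP1 arrays, at 7.23 and 7.47, than in the CD40-activated arrays, at 10.74 and 10.80. Of 15 class I presentation genes, 3 rose and 2 fell. Psmb8 rose by 0.93, Erap1, which trims peptides, by 0.81 and Psme1 by 0.69, while the transporter subunit Tap2 fell by 0.69 and Psmb10 by 0.63. The class I counts were 1 and 3 without YFP control 2, 0 and 0 without either CD40-activated array, and 6 and 1 without YFP control 1.

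Of 25 cytokine and chemokine genes 5 fell and 1 rose, which is 24.0% called against 13.8% over all genes. For 2 of the 5 that fell the naive arrays lay above the CD40-activated arrays. The 1 that rose was Tnf, which read 7.55 and 7.91 in the YFP control arrays, 9.71 and 9.60 in the CD40-activated arrays, 7.55 and 7.69 in the naive arrays and 10.03 and 10.05 in the LMP1 arrays, a rise of 1.93 ± 0.18 (adjusted p = 0.00019). Tnf was thus level in control and naive cells and high in both activated groups. Tgfb3 read 9.52 and 9.20 in the YFP control arrays, 5.82 and 5.77 in the CD40-activated arrays, 5.62 and 5.80 in the naive arrays and 5.21 and 4.72 in the LMP1 arrays, a difference of -3.56 ± 0.21. Here the YFP control was the group that stood apart. Ccl3, a chemokine of activated leukocytes, read 10.30 and 11.32 in the YFP control arrays and 8.18 and 8.25 in the CD40-activated arrays, and fell by 2.60. Il1b fell by 1.88, Il10 by 1.27 and Il12a by 0.92. YFP control 2 was the higher of its pair for Il1b and Il10, at 6.43 and 5.88 against 5.36 and 4.84, and without it Il10 missed the threshold (adjusted p = 0.0609). Il5, Ccl4 and Cxcl16 differed by 0.00, -0.05 and 0.07. The counts were 2 higher and 4 lower without YFP control 2, 1 and 3 without either CD40-activated array, and 1 and 8 without YFP control 1.

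Receptors that guide B cells through lymphoid tissue fell in part. Of 12 chemokine and homing receptors 3 fell and 1 rose. Cxcr4 read 11.11 and 10.39 in the YFP control arrays, 8.93 and 9.0 in the CD40-activated arrays, 11.45 and 11.44 in the naive arrays and 8.0 and 7.64 in the LMP1 arrays, and fell by 1.78 (adjusted p = 0.00132). Control and naive arrays were high and both activated groups low. Ccr7, which guides cells to the T cell zone, fell by 1.26, and S1pr1, the receptor for exit into blood and lymph, by 1.18. Ackr3, a scavenging receptor for the ligand of Cxcr4, rose by 1.17, from 6.14 and 6.43 to 7.38 and 7.52. Of 19 adhesion molecules 6 fell and 3 rose: Itgb7 fell by 1.82, Selplg, the ligand of selectins, by 1.65, Cd2 by 1.42, Alcam by 1.31, Itga6 by 1.11 and Icam2 by 0.92, while Itgb1 rose by 0.99, Itgal by 0.89 and Itgb2 by 0.77. The integrins that rose encode the chains of LFA-1 and the common beta 1 chain. Without YFP control 2, 8 adhesion genes were lower and 1 higher, and Itgal (adjusted p = 0.0928) and Itgb2 (adjusted p = 0.0566) were lost. Without CD40-activated 1 the counts were 1 higher and 3 lower and without CD40-activated 2 they were 0 and 3. The homing receptor counts were 1 and 2, and 0 and 2, in the same order, and 2 and 4 without YFP control 1.

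Cytokine receptors were divided, with 4 of 21 interleukin and TNF receptors higher, Il9r among them, and 3 lower. Il21r, the receptor for a helper T cell cytokine, rose by 0.77, Il7r by 0.81 and Ifngr1 by 0.71. Il7r and Ifngr1 were also high in the naive arrays, at 9.44 and 9.18 and at 9.58 and 9.62. Il2ra, the alpha chain of the interleukin 2 receptor, read 8.52 and 10.15 in the YFP control arrays, 7.75 and 7.38 in the CD40-activated arrays and 11.17 and 11.01 in the LMP1 arrays, and fell by 1.77. The gap between the control arrays was nearly as large as the fall, and without YFP control 2 the difference was -0.95. Il10ra fell by 1.27 and Tnfrsf13c, the BAFF receptor, by 0.88. Without CD40-activated 1 the list had 1 higher and 1 lower, and without CD40-activated 2 it had 1 higher and 0 lower. It had 5 and 4 without YFP control 1 and 3 and 4 without YFP control 2.

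Of 17 B lineage transcription factors, 0 rose and 7 fell, with a median of -0.61, and for 6 of the 7 the naive arrays lay above the CD40-activated arrays. Bach2, a repressor that holds off plasma cell differentiation, read 11.18 and 10.71 in the YFP control arrays, 9.06 and 9.22 in the CD40-activated arrays and 10.36 and 10.11 in the naive arrays, and fell by 1.80 (adjusted p = 0.000495). Klf3 fell by 1.21, Pou2f2, which encodes OCT2, by 1.15, Id3 by 0.92, Ebf1 by 0.70, Foxp1 by 0.69 and Mef2c by 0.64. Pou2af1, Tcf4 and Ikzf1 differed by 0.32, 0.04 and 0.10 and missed the threshold. The count of factors that were lower was 9 without YFP control 2, 2 without CD40-activated 1 and 1 without CD40-activated 2.

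The B cell receptor list had 3 of 20 higher and 4 lower. Fcer2a, the low affinity IgE receptor CD23 and a known CD40 response gene, read 10.53 and 10.34 in the YFP control arrays, 11.92 and 11.93 in the CD40-activated arrays, 11.41 and 11.51 in the naive arrays and 11.92 and 11.95 in the LMP1 arrays, a rise of 1.49 ± 0.16 (adjusted p = 0.000441). The control arrays were the lowest of the 4 groups. Cr2, the complement receptor CD21, rose by 1.39 and Cd81, its partner in the coreceptor, by 0.81. Fcrla, an intracellular Fc receptor homologue, fell by 2.01, Cd79b by 0.99, the adaptor Bank1 by 0.71 and Dapp1 by 0.65. Cd79b was low in all 4 C57BL6 arrays, with naive levels of 11.81 and 11.84 against 12.85 and 12.52 in the YFP control. Without YFP control 2 the counts were 3 and 7, without CD40-activated 1 they were 2 and 2, without CD40-activated 2 they were 2 and 1 and without YFP control 1 they were 6 and 5. With YFP control 2 left out, Cd81 missed the threshold and Fcrl5, an Fc receptor homologue, passed it, in a fit with 1 control array.

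Genes that mark quiescent B cells fell in part. Of 19 measured, 6 fell and 1 rose, with a median of -0.57, and all 6 that fell had the naive arrays above the CD40-activated arrays. Cd55, a complement regulator, read 10.27 and 10.07 in the YFP control arrays, 8.01 and 7.98 in the CD40-activated arrays and 10.38 and 10.43 in the naive arrays, and fell by 2.17 (adjusted p = 5.58e-05). Control and naive cells were level for this gene. Bach2 and Klf3 are counted here too. Zfp36l2, an RNA-binding protein that promotes decay of messenger RNAs, fell by 1.41, Sesn1 by 1.09 and the antiproliferative gene Btg2 by 0.92, while Sesn3 rose by 0.82. Klf2, the factor that maintains quiescence and drives S1pr1, differed by -1.04 and missed the threshold (adjusted p = 0.106). Without YFP control 2 its difference was -1.81. Klf2 was named after its values were seen. The list had 10 lower without YFP control 2, 4 lower without CD40-activated 1 and 3 lower without CD40-activated 2.

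Markers of differentiation stages gave no single direction. In the germinal centre list 2 of 11 rose and 2 fell: Fas and Basp1 rose by 1.85 and 1.25, and Bcl6, the repressor that defines germinal centre cells, fell by 1.39 and Lmo2 by 0.71. In the plasmablast list 2 of 15 rose (Irf4 and Slamf7) and 3 fell. Jchain, the joining chain of secreted IgM and IgA, read 8.14 and 8.02 in the YFP control arrays, 4.81 and 4.66 in the CD40-activated arrays and 7.20 and 6.95 in the naive arrays, a difference of -3.35. Sdc1, which encodes CD138, fell by 0.89 and Derl3 by 1.01. In the list of marginal zone and B1 cell genes 3 of 17 rose and 3 fell, among them Pik3r4 and Myof, up by 1.85 and 1.82, and Plac8, down at a difference of -3.52 from 10.61 and 10.57 to 7.25 and 6.89. The naive arrays for Plac8 were in between, at 8.73 and 8.33. In the plasmablast list 0 were higher and 2 lower without YFP control 2, where Derl3 (adjusted p = 0.0646) was lost as well as Irf4 and Slamf7, 0 and 2 without CD40-activated 1, 0 and 1 without CD40-activated 2, and 4 and 2 without YFP control 1. The germinal centre counts were 3 and 3 without YFP control 2, 1 and 1 without either CD40-activated array, and 2 and 3 without YFP control 1. The marginal zone and B1 counts were 3 and 5 without YFP control 2, 3 and 2 without either CD40-activated array, and 5 and 3 without YFP control 1.

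Of 25 DNA replication genes, 18 rose and 0 fell, with a median of 1.16 against -0.04 over all genes, and all 18 had the naive arrays below the CD40-activated arrays. Uhrf1, which keeps DNA methylation through replication, read 7.60 and 7.01 in the YFP control arrays, 9.88 and 9.75 in the CD40-activated arrays, 7.04 and 6.82 in the naive arrays and 10.01 and 10.09 in the LMP1 arrays, a rise of 2.51 (adjusted p = 0.000114). Mcm3, a subunit of the replicative helicase, read 8.60 and 7.90 against 10.07 and 9.94, a rise of 1.75. The subunits Mcm2, Mcm5, Mcm7 and Mcm6 rose by 1.36, 1.21, 0.89 and 0.86. Control cells were above naive cells for Mcm3, at 7.63 and 7.39, and below LMP1 cells, at 10.57 and 10.59. Enzymes of nucleotide supply rose too, with Rrm2 at 1.55, Tk1 at 1.47, Tyms at 1.36 and Rrm1 at 0.94, and Lig1 and Fen1, which join and process lagging strand fragments, rose by 1.43 and 1.41. The count of genes that rose was 12 without YFP control 2, 16 without YFP control 1, 5 without CD40-activated 1 and 4 without CD40-activated 2.

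The promoter of Mcm6 is shown because it carries the E2F letter patterns TTTCCCGC or TTTGGCGC, searched on both strands, in capitals on the gene's strand in RefSeq build GRCm38.p6.
Mcm6, chr1:128359706-128359955, minus strand: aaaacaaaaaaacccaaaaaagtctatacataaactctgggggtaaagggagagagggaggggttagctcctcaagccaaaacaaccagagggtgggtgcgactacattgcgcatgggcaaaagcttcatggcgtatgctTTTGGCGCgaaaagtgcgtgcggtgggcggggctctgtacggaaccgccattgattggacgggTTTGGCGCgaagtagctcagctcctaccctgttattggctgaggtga
The matches begin at -110 and -47. The patterns were in the 300-base windows of 2.36% of all autosomal genes with a window, 5.36% of the genes that rose and 8 of 21 replication genes (38.1%), and in 0 of 19 mitosis genes. Among the replication genes that rose 6 of 17 held one. These are matches of letters and say nothing of binding.

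Of 24 mitosis genes, 15 rose and 0 fell, with a median of 1.10, and all 15 had the naive arrays below the CD40-activated arrays. Birc5, the passenger protein survivin, read 5.73 and 5.51 in the YFP control arrays and 7.89 and 7.88 in the CD40-activated arrays, a rise of 2.27, with naive arrays at 6.71 and 5.51. Top2a, the topoisomerase that untangles chromosomes, rose by 1.85, Prc1 by 1.61, Tpx2 by 1.59 and Mki67, the proliferation antigen Ki-67, by 1.41. The naive arrays were far apart for several of these genes, such as 8.49 and 6.59 for Top2a, and this spread enters the fit over all 8 arrays. Aurkb was the lowest of the list at -0.39, short of the threshold. The list had 12 higher without YFP control 2, where Top2a (adjusted p = 0.103) and Mki67 (adjusted p = 0.0604) were lost, 11 without YFP control 1, 3 without CD40-activated 1 and 7 without CD40-activated 2. Of 17 regulators of entry into S phase, 5 rose and 1 fell. Cdk6 rose by 1.53 and the inhibitor Cdkn1a by 1.06, the F-box gene Skp2 by 1.01, and E2f1 and E2f3 by 0.91 and 0.83, while Rb1 fell by 0.65. Ccnd2, the D cyclin of activated B cells, differed by 0.10. The counts of these regulators were 2 higher and 0 lower without either CD40-activated array, 7 and 1 without YFP control 1, and 5 and 0 without YFP control 2.

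Of 19 MYC target and ribosome biogenesis genes, 10 rose and 1 fell, with a median of 0.81 and counts of 10 and 1 without YFP control 2. Nop58, a core protein of snoRNA particles, read 8.25 and 7.54 in the YFP control arrays, 10.18 and 10.35 in the CD40-activated arrays, 8.93 in both naive arrays and 10.17 in both LMP1 arrays, a rise of 2.37. Its gene hosts snoRNAs, among them Snord70 above, but its naive levels were below the CD40-activated levels, unlike those of the snoRNA genes. Mybbp1a, Wdr12, Ncl and Gnl3 rose by 1.55, 1.53, 1.39 and 1.27. Myc itself differed by 0.18 (adjusted p = 0.598), and Ppan fell by 1.17. Without CD40-activated 1 or CD40-activated 2, 6 genes were higher and 0 lower.

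Of 17 genes of cholesterol synthesis, uptake and efflux 11 rose and 1 fell, with a median of 1.04. Hmgcs1, an early enzyme of the mevalonate pathway, read 8.94 and 8.75 in the YFP control arrays, 10.49 and 10.41 in the CD40-activated arrays, 7.82 and 7.70 in the naive arrays and 10.05 and 10.01 in the LMP1 arrays, a rise of 1.6 (adjusted p = 0.000311). Cyp51, which demethylates lanosterol, read 7.57 and 8.37 in the control and 9.52 and 9.77 in the CD40-activated arrays, a rise of 1.68. Stard4, Lss, Mvd, Pmvk, Sqle and Msmo1 rose by between 1.10 and 1.54. The 1 that fell was Abca1, the pump that exports cholesterol, at 8.57 and 8.20 against 6.09 and 5.89, a difference of -2.40, with naive arrays at 9.27 and 9.47. Counts were 10 and 1 without YFP control 2, 7 and 1 without CD40-activated 1, and 5 and 1 without CD40-activated 2.

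Serine and one-carbon metabolism, which supplies nucleotide synthesis, had 7 of 16 genes higher and 0 lower, with a median of 0.98. Shmt1 read 6.76 and 6.84 in the YFP control arrays, 8.47 and 8.37 in the CD40-activated arrays and 5.49 and 5.74 in the naive arrays, a rise of 1.62, and Mthfd1l and Phgdh, the entry enzyme of serine synthesis, rose by 1.55 and 1.43. The list had 3 higher without CD40-activated 1, 4 without CD40-activated 2, 9 without YFP control 1 and 8 without YFP control 2. Of 13 glycolysis genes 4 rose and 1 fell: Hk2, Pkm, Slc2a3 and Pfkp rose by 1.28, 1.19, 1.12 and 0.64, and the glucose transporter gene Slc2a1 fell by 0.66. The glycolysis counts were 2 and 0 without CD40-activated 1, 1 and 0 without CD40-activated 2, 5 and 1 without YFP control 1, and 3 and 1 without YFP control 2. Of 18 genes of the unfolded protein response and the ATF4 pathway 6 rose, among them Herpud1 by 1.45, Sesn2 by 1.39 and the chaperone Hspa5 by 1.34. Hspa5 was as high in the naive arrays, at 9.51 and 9.07, as in the CD40-activated arrays, at 9.11 and 9.34. That list had 5 higher without CD40-activated 1 and 4 without CD40-activated 2. Of 16 p53 targets, which share Sesn2 and Cdkn1a with the lists above, 6 rose and 2 fell, with Tnfrsf10b and Zmat3 up by 1.51 and 1.45 and Trp53inp1 down by a difference of -0.64. Mdm2 differed by 0.06. The p53 counts were 6 and 0 without CD40-activated 1 and 5 and 0 without CD40-activated 2. Of 17 apoptosis regulators 3 rose and 1 fell, with Bid up by 1.11, and without CD40-activated 2 the counts were 1 and 0 and without YFP control 1 they were 6 and 1. Of 13 heat shock genes 4 rose, among them Hspe1 by 1.69, and 1 fell, with 0 called without either CD40-activated array, and 7 higher and 0 lower without YFP control 1.

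**Figure D3:**
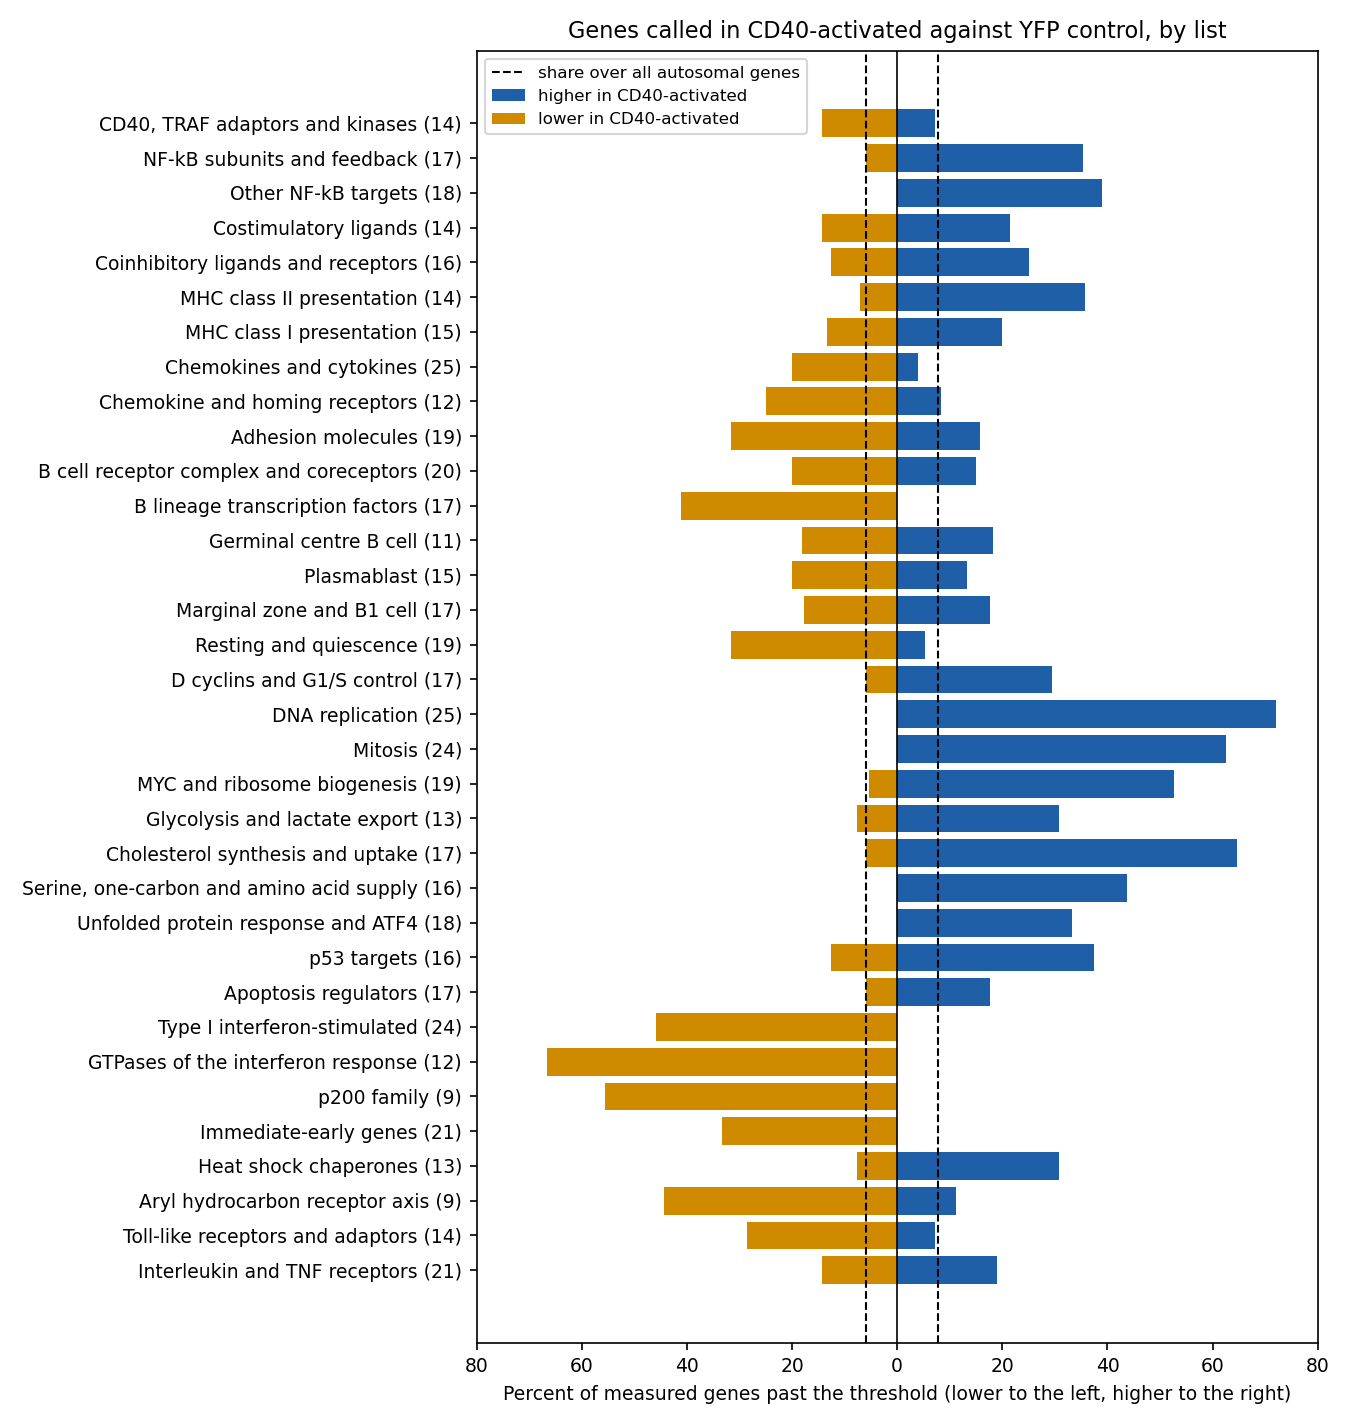
Percent of the measured genes of each list that passed the threshold, higher in CD40-activated cells to the right and lower to the left, with the number of measured genes in brackets. Dashed lines mark the shares over all autosomal genes, 7.86% higher and 5.95% lower. DNA replication reaches 18 of 25 genes higher and the interferon GTPases 8 of 12 lower.

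No measured gene of the type I interferon list rose. Of 24 type I interferon-stimulated genes, 0 rose and 11 fell, with a median of -0.77, and for all 11 the naive arrays lay above the CD40-activated arrays. Oas2, which makes the activator of RNase L, read 8.24 and 7.87 in the YFP control arrays, 5.83 and 5.54 in the CD40-activated arrays, 7.47 and 7.10 in the naive arrays and 5.42 and 5.71 in the LMP1 arrays, a difference of -2.37 (adjusted p = 0.000173). Control and naive arrays were high and the other groups low. Irf7, the transcription factor that amplifies interferon production, read 7.87 and 7.14 in the control and 5.67 and 5.28 in the CD40-activated arrays, and fell by 2.03. Rtp4 and Zbp1, a sensor of nucleic acids, fell by 2.37 and 2.33, Xaf1 by 1.65, Ifit1 by 1.61 and Mx2 by 1.45. Isg15, Ifit3 and Bst2 differed by -0.04, -0.09 and -0.25 and missed the threshold. The list had 15 lower without YFP control 2, 11 without YFP control 1, 10 without CD40-activated 1 and 9 without CD40-activated 2.

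Of 12 interferon-induced GTPases, which disrupt the vacuoles of intracellular pathogens, 8 fell and 0 rose, with a median of -1.24. Irgm2 read 9.35 and 9.14 in the YFP control arrays, 6.12 and 6.37 in the CD40-activated arrays, 7.33 and 7.14 in the naive arrays and 8.99 and 8.84 in the LMP1 arrays, a difference of -3.0 ± 0.18 (adjusted p = 1.7e-05). Both F1 groups were high, the naive arrays lower and the CD40-activated arrays lowest. Igtp fell by 2.71, Gbp7 by 2.44, Gbp4 by 1.55, Gbp5 by 1.37, Gbp10 by 1.25, Irgm1 by 1.23 and Iigp1 by 1.16. For 7 of the 12 GTPases all 4 C57BL6 arrays lay below the F1 arrays, and for 6 of the 8 that fell the naive arrays lay above the CD40-activated arrays. Gbp8, Gbp9 and Gbp3 differed by -0.07, -0.12 and -0.15. The count was 8 without YFP control 1, YFP control 2 or CD40-activated 1 and 6 without CD40-activated 2.

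Promoters of Igtp and Irgm1 are shown because they hold the interferon response pattern close to the start, with GAAANNGAA on either strand in capitals, from RefSeq build GRCm38.p6 on the gene's strand.
Igtp, chr11:58199306-58199555, plus strand: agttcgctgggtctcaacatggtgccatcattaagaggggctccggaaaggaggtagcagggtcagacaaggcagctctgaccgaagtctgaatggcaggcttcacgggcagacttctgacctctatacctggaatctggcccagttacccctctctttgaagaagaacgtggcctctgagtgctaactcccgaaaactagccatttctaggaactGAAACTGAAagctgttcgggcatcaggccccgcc
Irgm1, chr11:48871421-48871670, minus strand: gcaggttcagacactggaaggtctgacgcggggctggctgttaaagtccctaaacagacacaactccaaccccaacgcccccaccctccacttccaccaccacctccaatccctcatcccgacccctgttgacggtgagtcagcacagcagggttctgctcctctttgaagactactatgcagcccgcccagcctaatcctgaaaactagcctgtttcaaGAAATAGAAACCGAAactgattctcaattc
The match in Igtp begins at -34, and overlapping matches in Irgm1 begin at -30 and -24. All 6 GTPase genes with a 300-base window held the pattern, as did 6 of 8 in the p200 family and 9 of 16 type I genes, against 9.20% of all autosomal genes with a window and 14.3% of the genes that fell. Of the type I genes that fell 2 of 6 with a window held it.

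Of 9 members of the p200 family, interferon-inducible DNA-binding proteins whose genes lie in one cluster, 5 fell and 0 rose, with a median of -1.94. Ifi214 read 10.34 and 9.85 in the YFP control arrays, 5.29 and 5.95 in the CD40-activated arrays, 8.32 and 8.14 in the naive arrays and 4.36 and 4.29 in the LMP1 arrays, a difference of -4.47 ± 0.24. The control arrays were highest and both activated groups lowest. Ifi213 fell by 3.36, Ifi209 fell by 2.40, Ifi208 fell by 2.06 and Ifi204 fell by 1.94, while Mndal, at 0.17, and Aim2, at -0.32, missed the threshold. These genes are near-identical in part and their probe sets may share signal. The family had 5 lower without YFP control 2, 8 without YFP control 1 and 4 without either CD40-activated array.

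**Figure D4:**
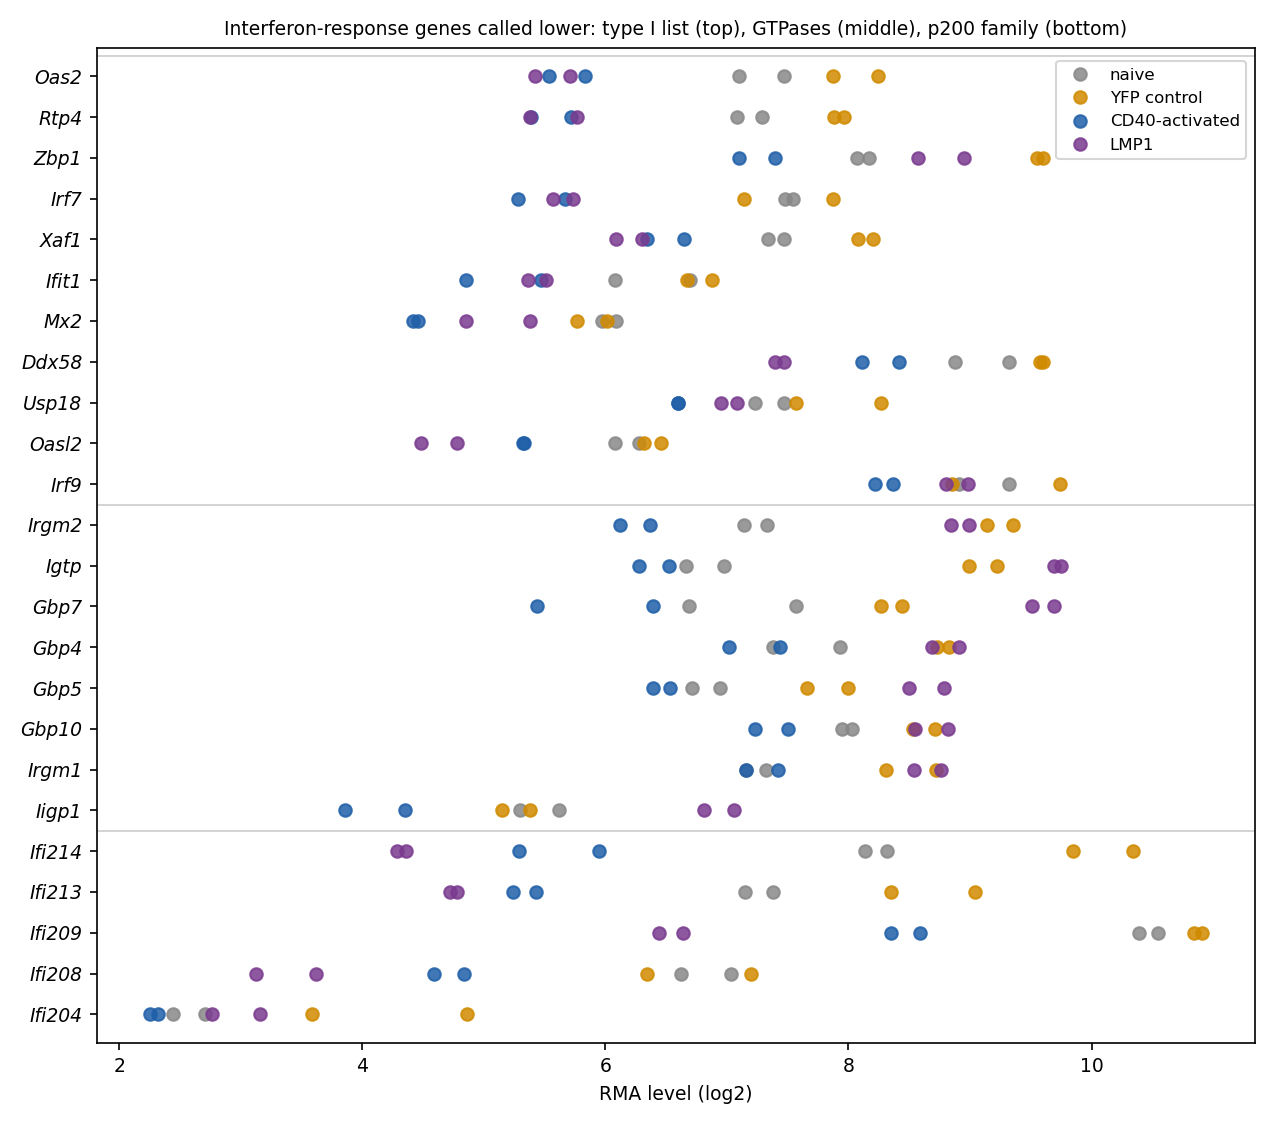
RMA level (log2) in each array for the interferon-response genes that fell, with the type I list at the top, the GTPases in the middle and the p200 family at the bottom. Points are arrays, coloured by group. In each row the CD40-activated arrays lie below the YFP control arrays, which goes with the choice of genes that fell. For the GTPases the LMP1 arrays lie near or above the YFP control, as for Irgm2 at 8.99 and 8.84. For Oas2 they lie low, at 5.42 and 5.71.

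Immediate-early genes, which respond within minutes to signals or handling, had 7 of 21 lower and 0 higher. Zfp36, an RNA decay factor, read 10.88 and 10.16 in the YFP control arrays, 8.62 and 8.31 in the CD40-activated arrays and 11.05 and 10.78 in the naive arrays, and fell by 2.06 (adjusted p = 0.000709). The nuclear receptors Nr4a3, Nr4a1 and Nr4a2 fell by 2.08, 1.36 and 1.05, and Junb, Egr2 and Klf6 by 0.85, 0.84 and 0.82. Fos differed by -0.06, at 5.58 and 5.42 against 5.40 and 5.48, while the naive arrays read 10.43 and 9.11. The sort of the YFP control cells goes with the group, and its part in these differences was not tested. Without either CD40-activated array 2 were lower, without YFP control 1 the counts were 3 higher and 5 lower, and without YFP control 2 they were 0 and 8.

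Of 9 measured genes of the aryl hydrocarbon receptor list, 1 rose and 4 fell. Ahr itself read 7.89 and 8.46 in the YFP control arrays, 9.47 and 9.59 in the CD40-activated arrays, 5.83 and 5.30 in the naive arrays and 6.04 and 5.73 in the LMP1 arrays, a rise of 1.35 (adjusted p = 0.00573). Both cultured groups without LMP1 were above the rest. Its known targets Tiparp, Cyp1a1 and Ahrr fell by 1.16, 0.72 and 0.64. Its partner Arnt fell by 0.68. For 0 of the 4 that fell did the naive arrays lie above the CD40-activated arrays. The median level of the list was 5.20 and 5.25 in the YFP control arrays and 5.10 and 5.08 in the CD40-activated arrays. Each of these is below the median of its array. Without YFP control 2, Cyp1a1 (adjusted p = 0.0815) and Ahrr (adjusted p = 0.0656) missed the threshold, and the counts were 1 higher and 2 lower. They were 1 and 1 without CD40-activated 1, 0 and 1 without CD40-activated 2, where Ahr missed the threshold (adjusted p = 0.0684), and 1 and 5 without YFP control 1. Of 14 Toll-like receptors and adaptors 4 fell and 1 rose: Tlr6 fell by 1.94, Tlr3 by 1.53, Myd88 by 0.66 and Tlr1 by 0.62, and Cd180 rose by 0.65. Without either CD40-activated array 0 of these were higher and 1 lower, and without YFP control 1 the counts were 3 and 4.

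**Figure D5:**
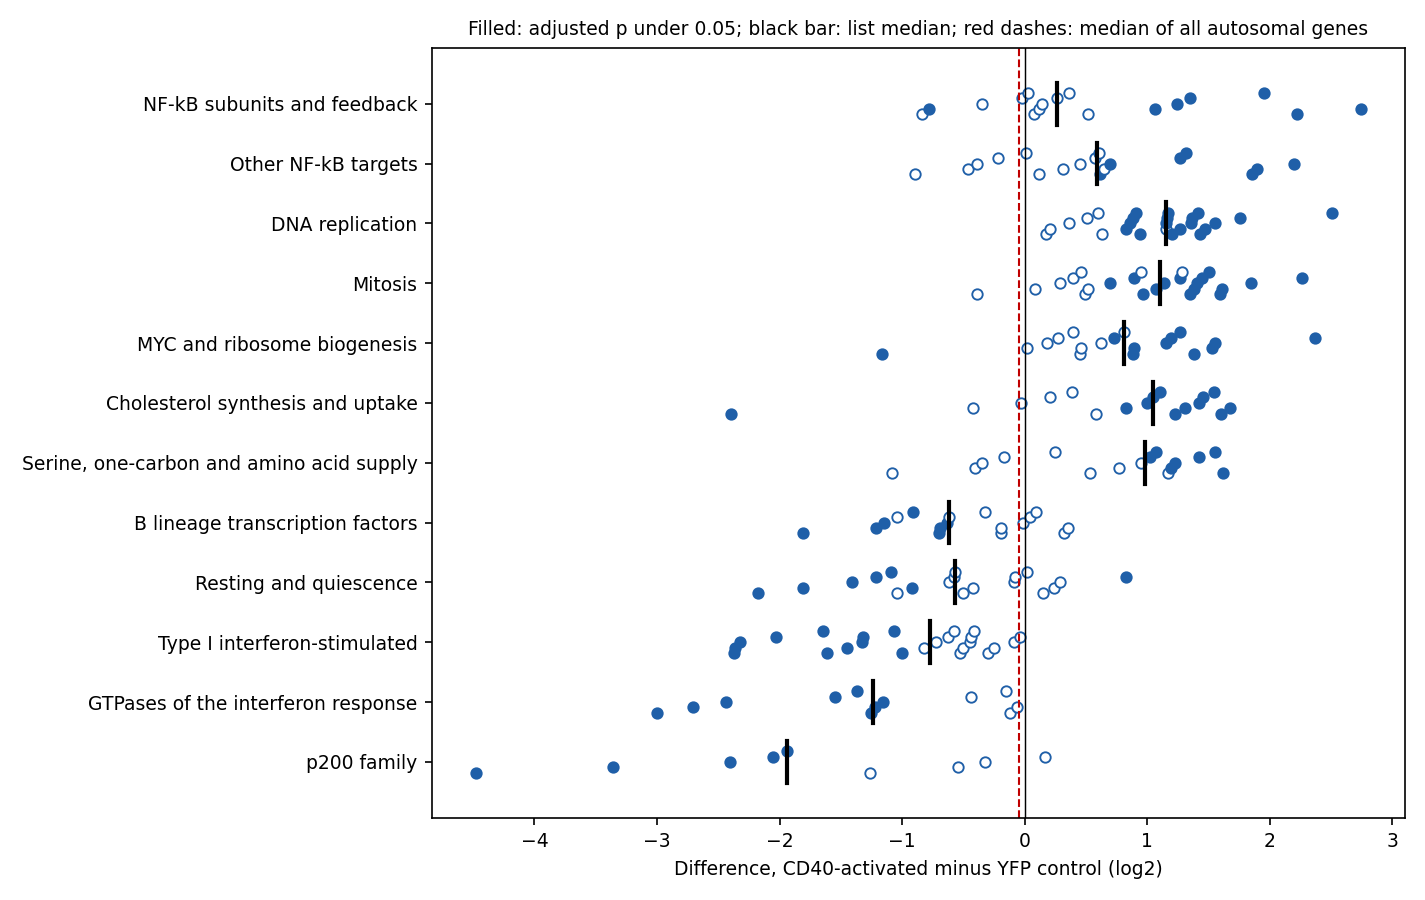
Difference between CD40-activated and YFP control cells (log2) for each measured gene of 12 lists. Filled points passed the threshold, open points did not, black bars are list medians and the red dashed line is the median of all autosomal genes, -0.04. DNA replication has a median of 1.16 and the p200 family one of -1.94.

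The lowest differences outside the lists were again mixed. Wfdc17 read 8.80 and 10.61 in the YFP control arrays and 4.97 and 5.12 in the CD40-activated arrays, a difference of -4.66, with the control arrays far apart. Neurl3, a ubiquitin ligase, read 11.60 and 11.09 in the YFP control arrays, 7.06 and 7.25 in the CD40-activated arrays and 11.46 and 11.51 in the naive arrays, a difference of -4.19. Control and naive cells were level, as for Cd55. Crisp3, Ctse, Scimp and Pla2g10os differed by -4.49, -3.89, -3.72 and -3.61, and Terc, the RNA of telomerase, and Jhy by -3.35 each. Protein-coding genes picked after their values were seen include Stat4, at -3.01, Lamp3, at -2.83, and Cmah, at -2.62.

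Of 8 T cell markers 1 rose (Il7r), of 9 NK cell, 10 neutrophil and 6 erythroid or platelet markers 0 were called, of 9 dendritic cell markers 2 rose (22.2%) and of 13 monocyte and macrophage markers 2 fell (15.4%), against 13.8% called over all genes. Summed on the linear scale, the T cell markers came to 398 and 569 in the YFP control arrays, 664 and 480 in the CD40-activated arrays and 3650 and 3030 in the naive arrays. The erythroid markers came to 234 and 274, 208 and 205, and 3810 and 1330 in the same order. Cd3e, a chain of the T cell receptor complex, read 6.11 and 6.24 in the YFP control arrays, 6.68 and 6.11 in the CD40-activated arrays and 9.96 and 9.39 in the naive arrays. The cultured groups thus overlapped or were close, and the naive arrays were higher. The part of other cells in the naive values given above was not tested. The monocyte markers came to 744 and 1020 in the YFP control arrays and 868 and 768 in the CD40-activated arrays. Among them Adgre1, a macrophage surface gene, read 7.53 and 8.03 in the YFP control and 5.56 and 5.83 in the CD40-activated arrays and fell by 2.08, and Lyz2 fell by 1.45 but missed the threshold without YFP control 2 (adjusted p = 0.175). Csf1r, a defining macrophage gene, read 5.09 and 4.82 in the YFP control and 4.70 and 5.05 in the CD40-activated arrays. The part of such cells in the falls of Ccl3, Il1b and the interferon-response genes was not tested. The lists share some genes, and each gene is counted in every list that holds it.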

How the data were processed

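RNA was measured on 8 Affymetrix whole-transcript arrays, labelled with the WT PLUS kit per the labels' protocols. The deposited values are log2 intensities that the authors made with RMA in oligo, per the submitters' processing notes. Versions are not given in the sources used here, and nor is whether both array sets were normalized together. Of 25349 probe sets, 22225 had 1 gene symbol, 616 had several and 2508 had none. Only the first were named, and the brightest probe set stood for each of 640 genes that had more than 1. Symbols, biotypes and chromosomes came from RefSeq tables, GRCm38.p6. A model of the 4 group means was fitted with limma 3.58.1 (lmFit and eBayes, R 4.3.3) to all 8 arrays, and p-values for CD40-activated minus YFP control were adjusted by Benjamini-Hochberg over all 21515 genes. The fit had 4 residual and 5.75 prior degrees of freedom. Calls have an adjusted p under 0.05. Array medians lay between 5.52 and 5.68. The scripts were tested on simulated data.

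The genes, lists and comparison were chosen with earlier results of these data known. Named were the 15 highest and 15 lowest called genes whose arrays did not overlap, all members of the CD40, NF-kB subunit, costimulatory, coinhibitory, class II and strain lists and the cell markers, and from other lists up to 5 called genes in each direction and 3 with the smallest change. 1 further gene model without a settled name lay among the lowest and is given only as this count. All further names, among them list members beyond these 5, were chosen after their values were seen. Alternatives were other eBayes settings, filters, scalings, probe set rules, a replicate block, single arrays left out and, added after seeing the data, protein-coding genes only and snoRNA genes left out.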

Additional observations from a re-analysis of the deposited data

How the results depend on the processing

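The count of 2842 called genes moved by over 1.5 times in these settings: 1596 (947 higher, 649 lower) with only the 4 arrays compared, 1742 (965 higher, 777 lower) with quantile normalization of those arrays alone, and 804 to 5250 when single arrays were left out, in which the count of at least 1 log2 unit was 785 to 2294 and the share of higher calls 48.9% to 59.9%. Quantile normalization within each set of arrays gave 3099 calls, 41.7% of them higher. Mybl1, a germinal centre gene at 0.10, ranged from -0.61 without YFP control 1 to 0.82 without YFP control 2. The cause was not tested. With trend and robust eBayes, a filter on dim genes, array medians subtracted, the mean of probe sets, adjustment over autosomal genes, protein-coding genes only or snoRNA genes left out, counts lay between 2585 and 2889. Samples with the same replicate number did not deviate together (r = -0.095 for the compared groups, -0.102 to 0.074 for the other pairs). Such correlations over all genes cannot exclude that the numbers pair samples. A replicate block gave 2731 calls (1560 higher, 1171 lower). A set of 283 called genes held all called list members and the genes picked for the highest and lowest differences. Of these, 214 stayed called with only the 4 arrays, 227 with their own quantile normalization, 244 within sets and 276 with the block.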
